A study of Mus musculus with 11 samples.

Results

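Windows of 10 kb that took up HIV DNA with nearly every fused protein were collected from 11 maps of HIV integration in mouse embryonic fibroblasts (MEF, cultured connective tissue cells of the mouse embryo). Chromosomes 1 to 19 of the mm9 mouse genome were cut into 246893 windows of 10 kb, and a window was kept where at least 10 of the 11 libraries had at least 1 distinct integration site. The histone gene regions at 21 to 24 Mb of chromosome 13 and at chr3:96000001-96500000 were left out. The rule kept 1287 windows, 0.521% of all windows, and they held 72123 sites, 9.01% of the sites on these chromosomes outside the histone regions. They are called shared windows here. The windows were chosen by the number of libraries with a site, so the number and share of sites in them are descriptions and carry no test. The 1 test below compares NELF with Integrator rates window by window, and it uses the same sites.

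All libraries came from C57BL/6 MEF of genotype LEDGF-/-, electroporated with a plasmid for 1 protein fused to LEDGF-IBD, infected with HIV 24 hours later and grown for 3 more days. LEDGF is the chromatin protein that tethers the viral integrase, and IBD is its integrase-binding domain, so in these cells the fused protein can take over the tethering. The NELF libraries carried NELFA, NELFB, NELFCD or NELFE, the Integrator libraries INTS3, NABP1, NABP2, INIP, INTS9 or INTS11, and the SPT5 library stands beside them. Each protein had 1 library, and the subunits of a complex serve as its replicates. Integration in these cells without any fused protein was not analysed here.

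NELF and SPT5, the large subunit of DSIF, hold RNA polymerase II in a pause just downstream of gene starts. Integrator joins the paused polymerase and cleaves nascent RNA through INTS11, the endonuclease, which works as a pair with INTS9. INTS3, INIP and either NABP1 or NABP2 form the SOSS complexes, which bind single-stranded DNA and join Integrator through INTS3. Integrator was first known for making the ends of the small nuclear RNAs (snRNAs) of the spliceosome, whose genes carry a short signal past the coding part, the 3′ box.

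The windows around snRNA genes stood high in the order of some libraries and low in that of others, so the 40 bases past the end of 7 of these genes are shown. They were read from mm9 on the gene's strand, with the gene names of GENCODE. Capitals mark the first match to GT, 1 to 5 bases, AAA, 0 to 5 bases, AG, a pattern drawn up after these flanks had been seen and searched on the gene's strand only.
U5, chr9:65049493-65049532, minus strand: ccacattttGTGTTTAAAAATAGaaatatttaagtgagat
U4, chr5:115940404-115940443, plus strand: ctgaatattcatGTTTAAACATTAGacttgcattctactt
U2, chr11:101503253-101503292, plus strand: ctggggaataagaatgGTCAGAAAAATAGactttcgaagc
U2, chr1:72273005-72273044, plus strand: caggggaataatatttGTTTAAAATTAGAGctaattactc
U1, chr11:87236533-87236572, plus strand: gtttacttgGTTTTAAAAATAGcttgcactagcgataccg
U1, chr12:55797933-55797972, plus strand: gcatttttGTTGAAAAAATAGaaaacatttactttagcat
U11, chr4:131825955-131825994, minus strand: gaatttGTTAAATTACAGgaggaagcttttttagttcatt
The pattern lay past 18 of 23 copies of U1, U2, U4, U5, U11 and U12 in shared windows (78.3%), past 30 of 270 annotated copies of the same names elsewhere (11.1%) and past 811 of 21418 protein-coding gene ends (3.79%). Many annotated copies elsewhere may be inactive remnants, which the annotation does not separate. The U2 pair on chromosome 11 has the same 40 bases past both copies, and sites of such near-identical copies may have been assigned to either.

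The libraries held 18753 (NELFE) to 197069 (INTS9) distinct sites, 831994 in all. Intervals below cover counting error only. Flow cells were taken from the read names in the files rather than from the labels. For INTS11 and part of INTS9 the name ends in FC, without an identifier. By these names the NELF libraries shared 1 flow cell with no other protein, and SPT5 had a flow cell to itself. The family and its flow cell therefore cannot be told apart. P-values set the difference between families against the spread among the subunits within them, and both may be technical in part.

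Only 352 shared windows were hit by all 11 libraries, and 935 were hit by 10. The missing library was INIP in 448 of the 935, NELFE in 186 and INTS11 in 137, all among the 5 libraries with the fewest sites, whereas NABP1 had a site in every shared window. Just inside the rule, windows hit by 10 libraries had a median of 40 sites over all libraries, and just outside it the 1622 windows hit by 9 had 28. A shared window held 13 to 340 sites, with a median of 45. Some dense windows were not shared: 398 other windows held more than 45 sites, up to 140. Small libraries can miss such windows by sampling, and the part of library size in this was not tested. At the other end, 61124 windows had no site in any library.

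Shared windows lay mostly at the starts of genes. Of the 1287, 936 held the start of a protein-coding gene (72.7%), against 7.38% of the other windows. A further 236 overlapped a protein-coding gene but held no start (18.3%, against 36.6%), 37 overlapped noncoding genes only (2.87%, against 3.12%) and 78 overlapped no annotated gene (6.06%, against 52.9%). At least 2 protein-coding starts were found in 220 shared windows (17.1%, against 0.757%), and 74 held a divergent pair of starts within 1 kb (5.75%, against 0.273%). Both a start and an end lay in 300 (23.3%, against 2.48%). Genes starting in shared windows were about as long as others, with medians of 14.6 and 15.6 kb. The DNA of shared windows was richer in G and C, with a median of 48.6% and 20.3 CpG per kb, than that of other windows with a protein-coding start, with 45.3% and 14.1 CpG per kb. Small RNA genes were also frequent: snoRNA genes overlapped 44 shared windows (3.42%, against 0.478%), miRNA genes 40 (3.11%, against 0.483%) and snRNA genes 34 (2.64%, against 0.521%).

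Most shared windows stood alone, 1054 of them, and 233 had a shared neighbour. Chromosome 11 held 153 (1.26% of its windows), chromosome 19 held 74 (1.21%) and chromosome 17 held 104 (1.09%), while chromosome 13 held 13 (0.111%). The longest run covered 6 windows at chr11:87230001-87290000, inside the gene Tex14, where 2 copies of U1, 4 copies of the snoRNA U3 and 1 of U6 are annotated. A run of 4 windows at chr1:72270001-72310000 held U2 and its clone-named relatives, and another of 4 at chr10:79600001-79640000 held Midn and Cirbp, a cold-inducible RNA-binding protein.

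Of 21418 protein-coding genes, 1188 started in a shared window (5.55%). Most of the lists examined stood above this share. Actin cytoskeleton genes had 21 of 31 starts in shared windows (67.7%), among them Actb, Actg1, Acta2, Cfl1 and Tpm1. Metabolic and other housekeeping genes had 12 of 19 (63.2%), including Gapdh and Pkm2. Immediate early genes, switched on within minutes of a growth signal, had 19 of 34 (55.9%), including Fos, Jun, Junb, Egr1, Ier2 and Atf3. Targets of the growth regulators YAP and SRF had 7 of 15 (46.7%), with Cyr61, Ctgf and Thbs1, and 3 of the 4 Id genes, inhibitors of differentiation, were among them. Growth factor and TGF-beta genes had 11 of 27 (40.7%) and collagen and matrix genes 8 of 25 (32.0%), with Col1a1, Sparc and Fbn1. Of 9 hosts of snoRNAs, 6 started in shared windows (66.7%), with Gas5 and Snhg1.

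Ribosomal protein genes stood lower, with 10 of 79 (12.7%), among them Rpl8, Rps2 and Rps12. Translation factor genes had 10 of 23 (43.5%), with Eef1a1 and Ncl. Genes of polymerase II elongation had 4 of 20 (20%), among them Brd2, Aff4 and Polr2a, and cell cycle genes 4 of 19 (21.1%). Among the genes of the fused proteins, Obfc2a and Obfc2b, which code for NABP1 and NABP2, were the 2 of 11 in shared windows. The neuronal list had 1 of 12 (8.33%), the tubulin gene Tubb3, and the lists for blood cells and hepatocytes had 0 of 8 each. None of 1098 olfactory receptor genes started in a shared window. The lists were drawn up with earlier results of these data known, and their counts carry no test.

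The densest shared window, by the mean over 11 libraries of sites per 100000 sites of a library, held the start of Neat1, the long RNA that builds paraspeckles. It had 19, 31, 24 and 13 sites in NELFA, NELFB, NELFCD and NELFE, then 34, 86, 53, 5, 18 and 8 in INTS3, NABP1, NABP2, INIP, INTS9 and INTS11, and 49 in SPT5. Per 100000 sites this was 72.7 ± 18.9 in NELF and 32.3 ± 18.6 in Integrator libraries (SD, n = 4 and 6), with 59.7 in SPT5, so all families were dense here and the lowest NELF library lay below the highest Integrator library. Of the pooled sites, 60 of 87 in NELF lay upstream of the Neat1 start, and 121 of 204 in Integrator libraries lay inside the gene. Malat1, the abundant nuclear RNA next to Neat1, started in the window ranked 7, with 48.4 ± 21.9 per 100000 in NELF libraries, 29.8 ± 18.03 in Integrator libraries and 26.8 in SPT5. Within 1 kb of its start lay 33 of 60 pooled NELF sites, 50 of 189 Integrator sites and 0 of 22 SPT5 sites. In the next window, over the far part of Malat1 and Gm20417, the means were 5.52 in NELF and 19.6 in Integrator libraries, with 49.98 in SPT5, and this difference did not pass (log2 difference -1.49 ± 0.607 SE; limma over all windows, adjusted p = 0.111).

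Brd2, a reader of acetylated histones that helps release paused polymerase, followed with 19, 31, 25 and 5 sites in NELFA, NELFB, NELFCD and NELFE. It had 38, 84, 52, 1, 21 and 11 sites in INTS3, NABP1, NABP2, INIP, INTS9 and INTS11, and 25 in SPT5. The rates were 62.6 ± 30.02 in NELF and 31.7 ± 20.9 in Integrator libraries, with 30.5 in SPT5, and the families overlapped. Brd2, at chr17:34248965-34259262, covers most of the window chr17:34250001-34260000. Inside the gene lay 74 of 80 sites in NELF and 204 of 207 in Integrator libraries, so high counts there follow largely from the window. The median site lay 1831 bases from the start in NELF and 4543 bases in Integrator libraries. Msh5 and Clic1, which start a few kb apart, shared the window ranked 5 with 60.03 ± 18.5 in NELF libraries, 24.9 ± 12.2 in Integrator libraries and 36.6 in SPT5.

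Several of the first 25 windows held genes that cells switch quickly. The window of Id3, an inhibitor of differentiation, had 50.1 ± 24.3 in NELF, 14.6 ± 10.004 in Integrator libraries and 36.6 in SPT5. The Id3 start, at base 135699412, lies near the end of the window chr4:135690001-135700000, so most of the window is upstream of it. Upstream lay 57 of 64 sites in NELF, 87 of 96 in Integrator libraries and 27 of 30 in SPT5, which the place of the start alone could give. Junb, a subunit of the AP-1 transcription factor, had 39.3 ± 14.5, 18.3 ± 9.28 and 35.3 in the same order, and Ier2 had 36.2 ± 14.9, 13.1 ± 8.30 and 36.6. The heat shock gene Hspa1b had 45.4 ± 12.6, 13.5 ± 7.71 and 25.6. Hmga1, an architectural chromatin protein, had 35.5 ± 20.9, 18.98 ± 13.3 and 28.04, and 32 of its 43 pooled NELF sites lay within 1 kb of the start, against 32 of 131 Integrator sites. Lfng, a modifier of Notch receptors, had 37.0 ± 7.999, 19.2 ± 3.77 and 41.4, and its 6 Integrator libraries were the closest together of these. In the Rhof window almost no site touched the gene: 53 of 53 NELF sites, 95 of 100 Integrator sites and 41 of 41 SPT5 sites lay upstream of its start. The window named for Tmem107 also holds Snord118, the gene of the U8 snoRNA, and a U6 copy. There 74 of 136 Integrator sites lay past the end of Snord118, against 12 of 44 NELF and 3 of 19 SPT5 sites.

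**Figure D1:**
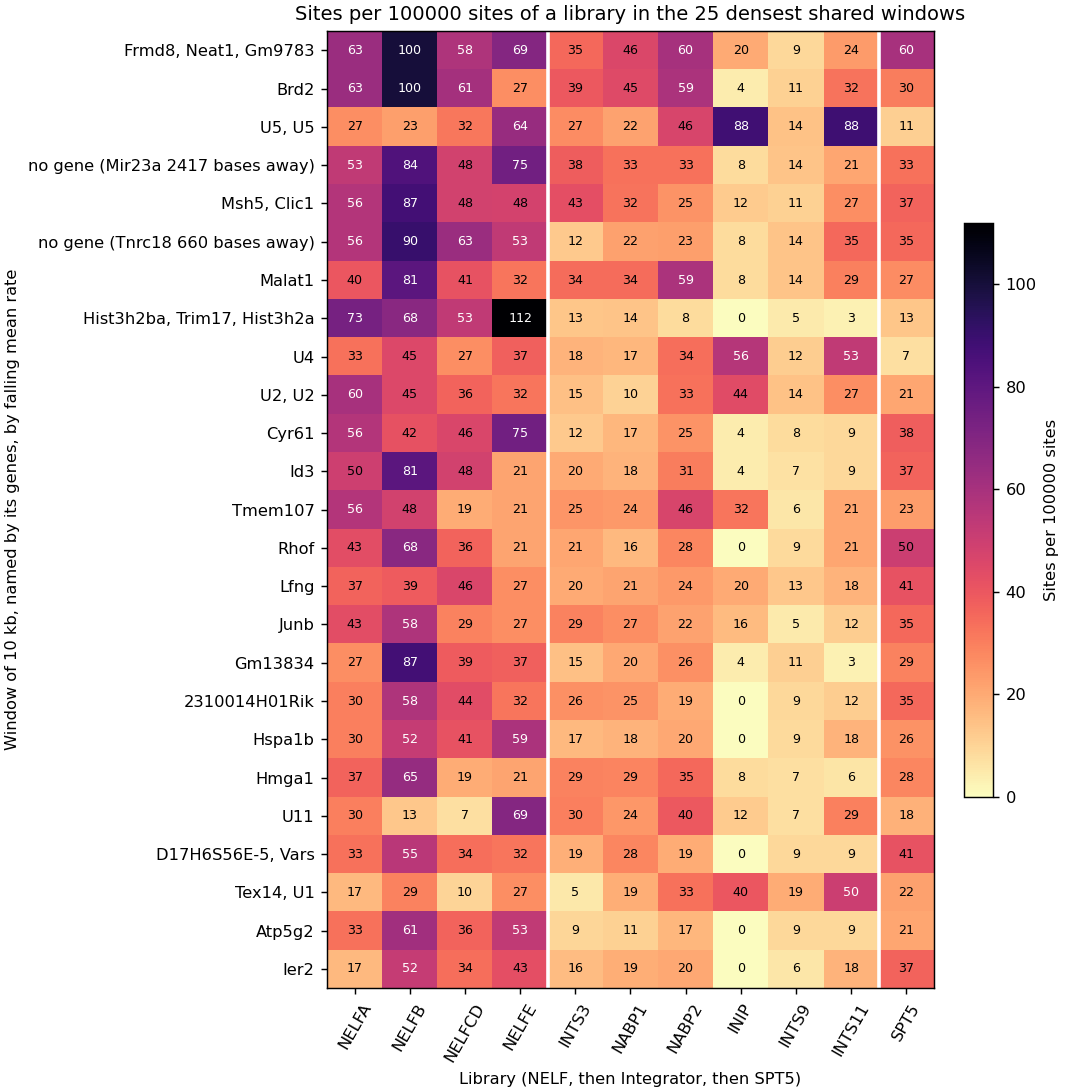
Sites per 100000 sites of a library (colour and printed value, from 0) in the 25 densest shared windows (down the page, named by their genes) for the 11 libraries (across, NELF, Integrator and SPT5 parted by white lines). The 4 NELF libraries are dark at the Hist3h2ba window, where no Integrator library exceeds 13.8, while INIP and INTS11 are darkest at U5, with 88.3 and 88.4.

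Of the 5 densest windows without an annotated gene, 3 lay within 5 kb of one and the others farther away. The window ranked 4, chr8:86720001-86730000, ends 2417 bases upstream of Mir23a and its neighbours Mir27a and Mir24-2, microRNAs made from 1 precursor. It had 16, 26, 20 and 14 sites in NELFA, NELFB, NELFCD and NELFE, 37, 62, 29, 2, 27 and 7 in INTS3, NABP1, NABP2, INIP, INTS9 and INTS11, and 27 in SPT5. That was 65.06 ± 17.0 per 100000 in NELF and 24.4 ± 12.1 in Integrator libraries, and no NELF library lay below an Integrator library. The window ranked 6, chr5:143580001-143590000, ends 660 bases upstream of Tnrc18 and had 65.8 ± 16.9 in NELF, 19.1 ± 9.83 in Integrator libraries and 35.3 in SPT5. A window between Neat1 and Malat1, at chr19:5810001-5820000, ranked 35 with 30.5 ± 12.6, 13.5 ± 10.02 and 26.8. Another at chr1:88330001-88340000 had no gene within 30 kb and ranked 54, with 33.98 ± 29.7, 8.07 ± 5.11 and 25.6. NELFB gave 23 of the sites there and NELFE only 1. The fifth, chr17:39980001-39990000, ranked 101 and had its nearest annotated gene 198849 bases away. Across all 78 shared windows without a gene, the median distance to a gene was 7160 bases, 30 lay within 5 kb of one and 8 lay beyond 50 kb.

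Windows around genes of spliceosomal snRNAs led the order in some libraries and were far down it in others. Counted here were the 23 windows holding copies of U1, U2, U4, U5, U11 or U12 or their clone-named relatives, which is 1.79% of the shared windows. U6, with 9 copies in shared windows, was not among the names counted. Of the sites in shared windows they took 4.83% in NELFE (95% exact binomial interval 3.95 to 5.83), 4.08% in NELFA (3.47 to 4.77), 2.96% in NELFCD (2.50 to 3.46) and 2.33% in NELFB (1.91 to 2.81). Among the Integrator libraries INIP had 10.999% (9.34 to 12.8), INTS11 8.06% (6.97 to 9.27), NABP2 5.01% (4.55 to 5.49), INTS3 4.12% (3.69 to 4.59), INTS9 4.06% (3.65 to 4.50) and NABP1 3.59% (3.31 to 3.89). SPT5 had 1.33% (1.14 to 1.55). INIP and INTS11 thus stood above every other library and SPT5 below every other one by more than counting error. The median rank of these windows among the 1287 was 82.5 in NELFE, 129.5 in NELFA, 250.5 in NELFCD and 392 in NELFB. It was 17.5 in INIP, 24 in INTS11, 55 in INTS9, 91 in NABP2, 100 in INTS3 and 138 in NABP1, and 723.5 in SPT5, so the NELF libraries differed widely among themselves. Of the 50 densest shared windows of a library, the snRNA windows were 8 in NELFE, 6 in NELFA and 2 each in NELFCD and NELFB, against 14 each in INIP and INTS11, 11 in INTS9, 9 in NABP2, 6 in INTS3 and 5 in NABP1, and 0 in SPT5.

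The U5 pair at chr9:65040001-65050000 had 8, 7, 13 and 12 sites in NELFA, NELFB, NELFCD and NELFE, which is 36.2 ± 18.9 per 100000, against 47.7 ± 33.3 in Integrator libraries and 10.97 in SPT5. It was the densest window of INIP, with 22 sites or 88.3 per 100000, and of INTS11, with 30 sites or 88.4. The U4 window had 35.6 ± 7.77 in NELF libraries, 31.6 ± 19.4 in Integrator libraries and 7.31 in SPT5. The U2 pair on chromosome 11 had 43.3 ± 12.3, 23.7 ± 13.2 and 20.7, and U11, of the minor spliceosome, 29.9 ± 28.02, 23.8 ± 12.2 and 18.3. The densest window of INTS9 held U1 inside Tex14, with 38 sites or 19.3 per 100000, and 36 further sites lay in a window of the same run with U3, ranked next. In each of these windows the ranges of the NELF and Integrator libraries overlapped.

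Sites around the snRNA genes lay past their ends more often than before their starts. Within 2 kb downstream of the end of the nearest copy lay 90 of 105 NELFB (85.7%), 84 of 101 NELFE (83.2%), 119 of 153 NELFA (77.8%) and 114 of 148 NELFCD sites (77.03%). INIP had 125 of 142 (88.0%), INTS11 128 of 181 (70.7%), NABP2 258 of 425 (60.7%), INTS9 207 of 347 (59.7%), NABP1 301 of 587 (51.3%) and INTS3 119 of 320 (37.2%), and SPT5 had 82 of 161 (50.9%). The 2 kb upstream held 3.52% of the INIP sites, 22.5% of the INTS3 sites and 29.8% of the SPT5 sites. Only sites inside the 23 windows were counted, and copies do not sit in the middle of their windows.

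The share of a protein's sites at snRNA windows differed between its own runs. On the flow cell shared by INTS9, NABP1 and NABP2 the shares were 3.18% (2.80 to 3.60), 2.84% (2.51 to 3.19) and 3.82% (3.39 to 4.29). On their other flow cells they were 11.99% (9.88 to 14.4) for INTS9, 4.62% (4.14 to 5.14) for NABP1 and 11.1% (9.51 to 12.9) for NABP2. INIP, with 10.999%, and INTS3, with 4.12%, were sequenced on the flow cell that gave 11.1% for NABP2. INTS11, with 8.06%, had the same flow cell name as the INTS9 run that gave 11.99%. The order of the Integrator libraries at snRNA windows therefore depends on which runs are taken, and the part of the flow cell in it was not tested.

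**Figure D2:**
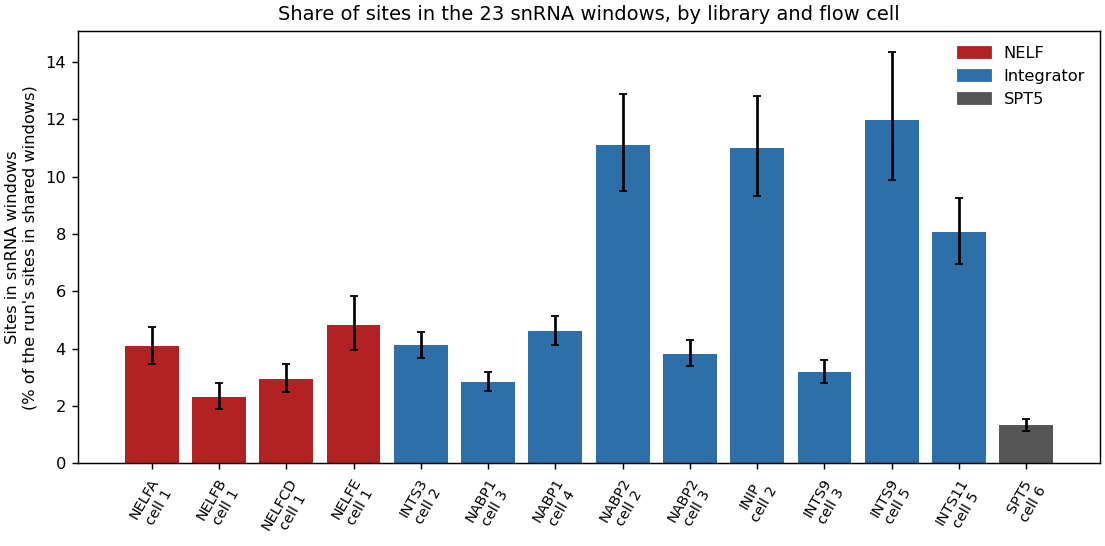
Share of a run's sites in shared windows that lay in the 23 snRNA windows (y axis, percent, from 0) for each library and flow cell (x axis, NELF, Integrator and SPT5; flow cells are numbered in order of appearance), with 95% exact binomial intervals. The bars of NABP2 and INTS9 stand at 3.82% and 3.18% on the flow cell they share, and at 11.1% and 11.99% on their other flow cells, which differ.

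By the share of all their sites in shared windows, SPT5 and the NELF libraries came first. NELFB had 15.3% (95% exact binomial interval 14.9 to 15.7), NELFA 13.1% (12.7 to 13.5), NELFCD 12.7% (12.3 to 12.99) and NELFE 11.8% (11.4 to 12.3). Among the Integrator libraries came NABP2 with 9.96% (9.76 to 10.2), NABP1 with 8.96% (8.83 to 9.09), INTS3 with 8.35% (8.17 to 8.52), INTS11 with 6.96% (6.68 to 7.24), INIP with 5.37% (5.09 to 5.67) and INTS9 with 4.50% (4.41 to 4.60). SPT5 led the order with 15.4% (15.2 to 15.7). SPT5 and NELFB had overlapping intervals, as had NELFA and NELFCD, and every other neighbour in this order was apart by more than its counting error. Every NELF library lay above every Integrator library, with means of 13.2% and 7.35%. The windows make up 0.521% of the bases, so SPT5 was 29.6 times and INTS9 8.63 times as dense there as evenly spread sites would be. A window can pass the rule only with sites in the small libraries too, and 3 of the NELF libraries are among the 5 smallest, so this order is a description of the rule as well as of the proteins.

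**Figure D3:**
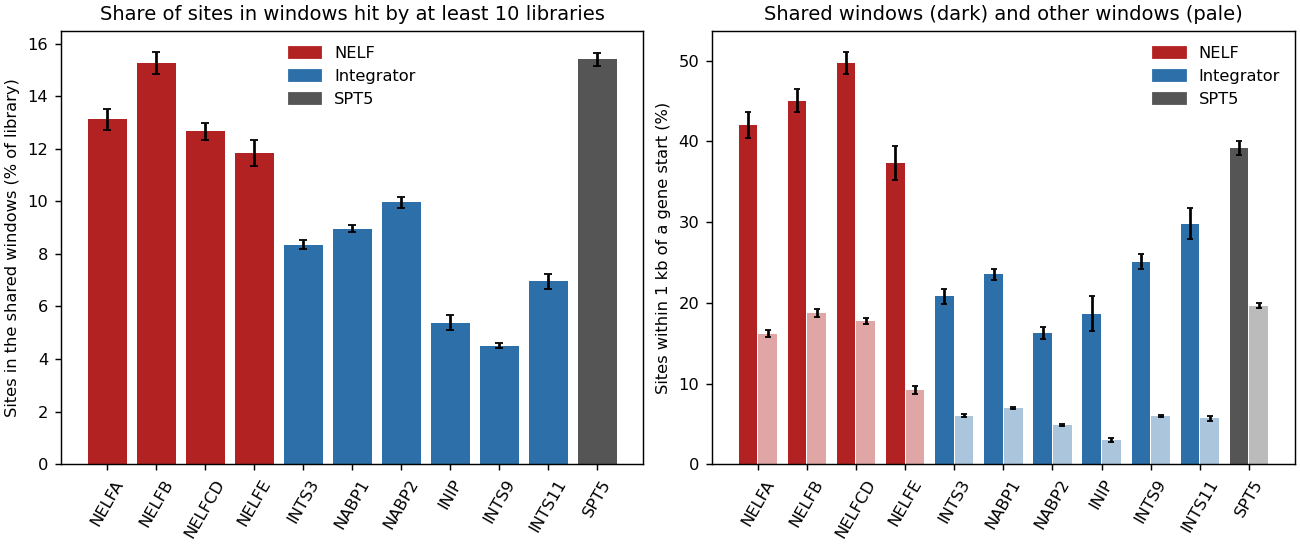
Left, percent of a library's sites in the shared windows; right, percent of sites within 1 kb of a protein-coding start in shared windows (dark) and other windows (pale), for NELF, Integrator and SPT5 libraries (x axis), with 95% exact binomial intervals. The NELF libraries reach 37.3% to 49.7% near starts in shared windows, and the Integrator libraries 16.3% to 29.8%.

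Libraries did not order the shared windows alike. Over the 1287 windows the Spearman correlation of rates averaged 0.38 for the 6 pairs within NELF, 0.35 for the 15 within Integrator and 0.26 for the 24 between these families, and it was 0.45 for SPT5 with NELF. NABP1 with NABP2 had 0.72, INTS3 with NABP1 0.67 and NELFE with INIP -0.12. NABP1 and NABP2 shared a flow cell, and the correlations of small libraries are lowered by windows with 1 or 0 sites, so these are descriptions across windows, which are not replicates. A few windows weighed most in INIP, where the 10 densest held 8.37% of its sites in shared windows, against 3.39% in INTS9. These 10 were picked by each library's own counts. The small libraries INTS11 and NELFE came next with 6.50% and 6.12%, and the part of library size was not tested.

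Of the 5 densest windows of SPT5, the Neat1 window alone was among the 25 densest overall. Its densest window held Actb, the gene of beta-actin, with 58 sites or 70.7 per 100000, against 26.6 ± 11.8 in NELF libraries and 8.67 ± 6.26 in Integrator libraries. In SPT5, 9 of 58 sites lay within 1 kb of the Actb start and 33 past the end of the gene, while 19 of 29 pooled NELF sites lay within 1 kb of the start. Midn followed in SPT5 with 65.8, against 21.6 ± 13.4 in NELF and 9.95 ± 7.51 in Integrator libraries. The window of Agrn and Isg15 had 62.2 and that of Pfn1, an actin-binding protein, 56.1 in SPT5. The Dot1l window ranked 4 in NABP2, with 51.02 per 100000 from 45 sites. It also had 48 sites in NABP1, and 1 or 2 in each NELF library.

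Inside shared windows, a larger share of NELF than of Integrator sites lay at gene starts, and a smaller share further downstream. Within 1 kb of a protein-coding start lay 43.5% ± 5.22 of NELF sites and 22.3% ± 4.84 of Integrator sites (SD, n = 4 and 6 libraries), with 39.2% in SPT5, while 16.4% of the bases of these windows lie there. The NELF libraries ranged over 37.3% to 49.7% and the Integrator libraries over 16.3% to 29.8%, without overlap. In the other windows the shares were 15.5% ± 4.31, 5.43% ± 1.36 and 19.6%, against 1.55% of the bases. From 1 to 5 kb downstream of a start the order was the reverse, with 21.3% ± 1.98 in NELF and 32.7% ± 3.996 in Integrator libraries, and 32.5% in SPT5, against 28.8% of the bases. Introns held 40.7% ± 1.07, 50.8% ± 3.24 and 45.0%, against 47.9% of the bases, and exons 18.6% ± 2.27, 14.2% ± 1.31 and 22.5%, against 13.3%. Within 1 kb of gene ends the means of the families lay within 1 SD of each other, with 7.32% ± 0.534 and 7.35% ± 0.545, and SPT5 had 9.87%. Against the share of bases, only NABP2 of the Integrator libraries was denser 1 to 5 kb downstream (1.32 times) than near starts (0.992 times). Near starts and downstream, INTS3 had 1.27 and 1.19 times, NABP1 1.435 and 1.23, and INIP 1.13 and 1.07. INTS9 had 1.53 and 1.06 times, and INTS11 1.82 and 0.939. The same sites chose the windows, so no test was made on these shares and densities.

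In the 716 shared windows with 1 protein-coding start, density was highest in the first 500 bases for each NELF library and for SPT5. It reached 3.52 times the mean of the windows in NELFA, 4.16 in NELFB, 4.45 in NELFCD, 2.83 in NELFE and 2.86 in SPT5. The subunits of SOSS had a hollow just before the start. In the 500 bases upstream, INTS3 had 0.906, NABP1 1.09, NABP2 0.587 and INIP 0.864 times the mean, lower than in the 500 bases before those, with 1.57, 1.34, 1.19 and 1.34. INTS9 and INTS11 had no such hollow, with 1.58 and 1.63 against 1.49 and 1.52. Further on, the Integrator libraries peaked at 500 to 1000 bases, with 1.71 in INTS3, 1.95 in NABP1, 1.77 in INIP, 1.89 in INTS9 and 2.73 in INTS11, except NABP2, which peaked at 1500 to 2000 bases with 1.65. The INIP values rest on 26 to 53 sites a bin.

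**Figure D4:**
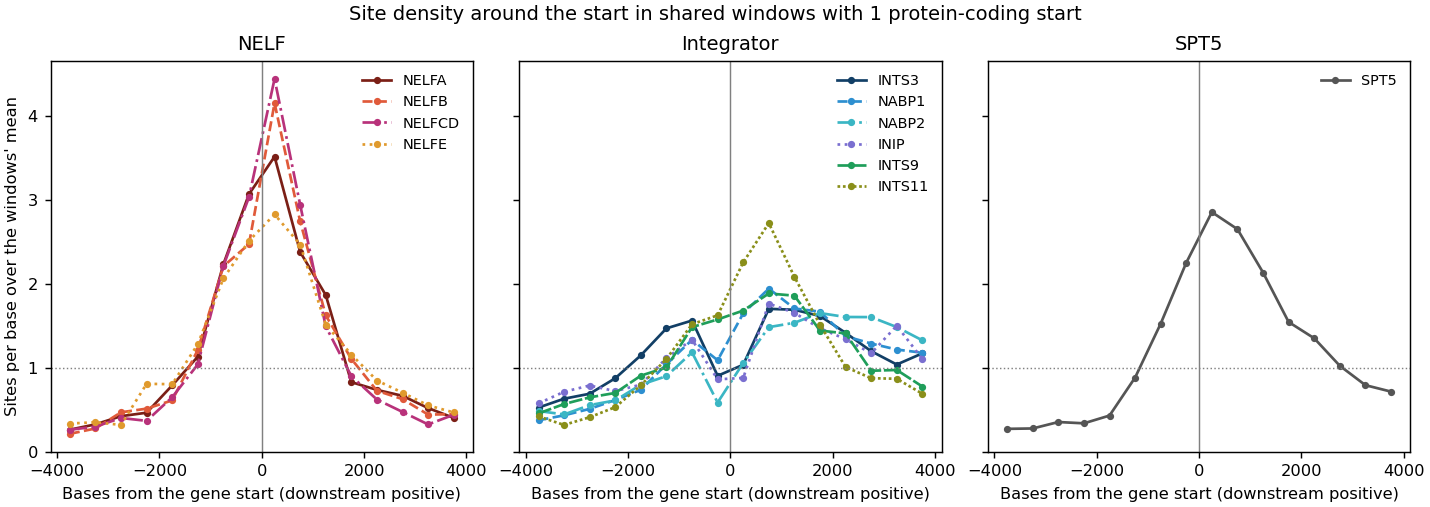
Sites per base in bins of 500 bases around the start (x axis, bases, downstream positive), divided by the mean over the 716 shared windows with 1 protein-coding start (y axis, 1 is the mean), for the NELF, Integrator and SPT5 libraries. NELF libraries peak at 2.83 to 4.45 in the first 500 bases, and INTS3, NABP1, NABP2 and INIP dip in the bin before the start.

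NELF and Integrator rates were compared by limma on log2(sites per 100000 + 1) over all 687 windows that averaged 5 or more sites over the libraries, of which 493 were shared windows. The difference is NELF minus Integrator, and over all 687 windows its median was 0.62. With Benjamini-Hochberg adjustment 12 windows passed an adjusted p of 0.05 with NELF higher (1.75% of those fitted) and 0 with NELF lower (0%). Of the shared windows 9 of 493 passed (1.83%), near the share over all windows fitted. A shared window needs sites in nearly all libraries, and 3 of the 5 smallest are NELF libraries. The median was 0.84 in the 493 shared windows, of which 77.5% had NELF higher, and -0.18 in the other 194, of which 47.4% did. The p-values take no account of how the windows were chosen, and the part of that choice in the differences was not tested. At an unadjusted limma p under 0.05 there were 139 of the 493 shared windows, 53 of the other 194 and 192 of all 687, which are similar shares. Every NELF library lay above every Integrator library in 70 shared windows (14.2%), against 83 of all 687 (12.1%), and below in 1, at Gnb1 (0.203%), against 5 (0.728%). Single libraries decided how many shared windows passed: 1 did without NELFA, NELFB or INTS9, 2 without NELFCD, 15 without NELFE, 21 without NABP2, 27 without NABP1, 28 without INTS3 and 34 without INIP.

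The difference was clearest at a small cluster of histone genes outside the regions left out. The window of Hist3h2ba, Hist3h2a and Trim17 had 22, 21, 22 and 21 sites in NELFA, NELFB, NELFCD and NELFE, and 13, 26, 7, 0, 9 and 1 in INTS3, NABP1, NABP2, INIP, INTS9 and INTS11, with 11 in SPT5. The rates were 76.5 ± 25.06 in NELF and 7.12 ± 5.67 in Integrator libraries, with 13.4 in SPT5, and every NELF library had a higher rate than every Integrator library. That is a log2 difference of 3.66 ± 0.618 (SE; limma, adjusted p = 0.00137). Of the pooled NELF sites 24 of 86 lay within 1 kb of the Hist3h2ba start and 13 of 86 within 1 kb of the start that Hist3h2a and Trim17 share, where 25 of 56 Integrator sites lay. H2afx, the gene of a histone variant that is modified at DNA breaks, had 36.5 ± 3.19 in NELF and 9.34 ± 5.88 in Integrator libraries, a difference of 2.10 ± 0.542 (limma, adjusted p = 0.0333).

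In the window before H2afx, Dpagt1, an enzyme that starts protein N-glycosylation, had 10, 18, 10 and 3 sites in NELFA, NELFB, NELFCD and NELFE, and 3, 13, 4, 1, 7 and 0 in INTS3, NABP1, NABP2, INIP, INTS9 and INTS11. Within 1 kb of its start lay 40 of 41 NELF sites and 16 of 28 Integrator sites. Its difference was 2.93 ± 0.636 (limma, adjusted p = 0.0174). Cyr61, a matrix protein and early target of YAP, had 17, 13, 19 and 14 sites in NELFA, NELFB, NELFCD and NELFE, and 12, 32, 22, 1, 16 and 3 in INTS3, NABP1, NABP2, INIP, INTS9 and INTS11. That was 54.8 ± 14.6 per 100000 in NELF and 12.6 ± 7.48 in Integrator libraries, with 37.8 in SPT5, and the ranges did not overlap. The difference was 2.20 ± 0.507 (limma, adjusted p = 0.0224). Atp5g2, a subunit of the mitochondrial ATP synthase, differed by 2.56 ± 0.623, Adamts1, a matrix protease, by 2.54 ± 0.654 and Irgm1, an interferon-induced GTPase, by 2.46 ± 0.634. In the Atp5g2 window, chr15:102500001-102510000, 47 of 54 pooled NELF sites and 58 of 65 Integrator sites lay upstream of the gene's start. That start, at base 102501478 on the minus strand, leaves most of the window upstream, which alone could give such counts. The window upstream of Tnrc18 differed by 1.85 ± 0.479 (limma, adjusted p = 0.0333).

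None of the 21 snRNA windows that were fitted passed, against 12 of all 687 windows fitted (1.75%), and 21 windows are too few to tell these shares apart. Their median difference was 0.18. The U5 pair differed by -0.20 ± 0.5265 (SE; limma, adjusted p = 0.808) and the U4 window by 0.37 ± 0.4999 (adjusted p = 0.639). Neat1, with 1.34 ± 0.491 (adjusted p = 0.0861), Actb, with 1.89 ± 0.666 (adjusted p = 0.0819), and Id3, with 1.85 ± 0.548 (adjusted p = 0.0542), missed the threshold too. The most negative difference among the shared windows was -1.87 ± 0.634 (adjusted p = 0.0722), at AC120136.1, a clone-named U2 relative, with 6.15 in NELF and 18.5 in Integrator libraries.

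**Figure D5:**
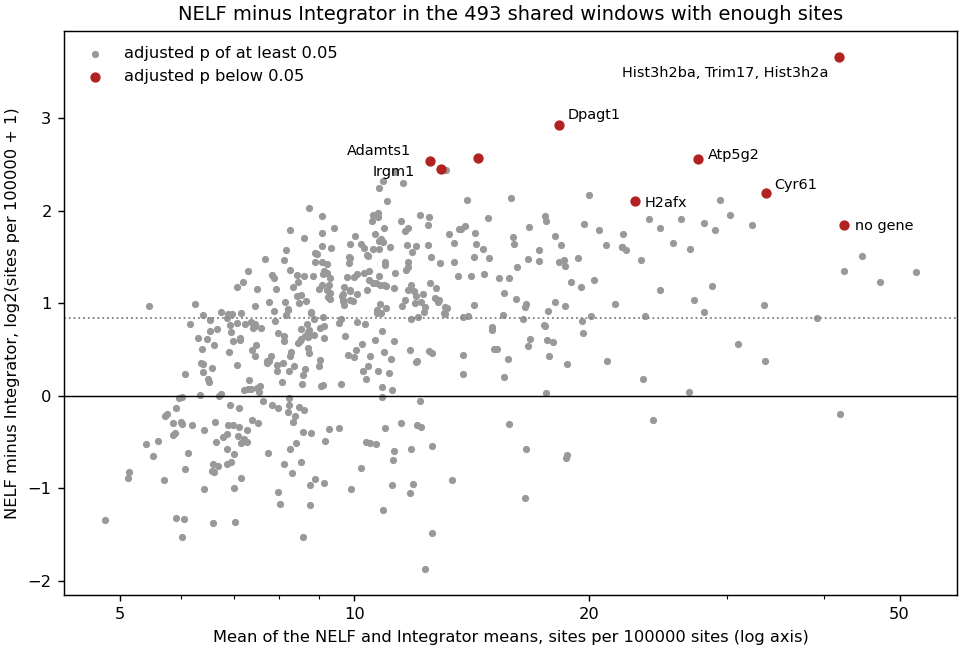
NELF minus Integrator difference in log2(sites per 100000 + 1) (y axis) against the mean of the NELF and Integrator means (x axis, log scale) for the 493 shared windows with enough sites; red points passed an adjusted p of 0.05 and the dotted line is the median of 0.84. The Hist3h2ba window lies highest at 3.66, and no window with NELF lower passed in this fit.

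Promoters in shared windows were searched for short motifs on both strands, over 250 bases before to 50 bases after the GENCODE start. GGGCGG, the core of the site for SP1-type factors, lay in 68.9% of the 1188 promoters in shared windows and in 42.3% of the 20230 others, and TATAAA in 8.17% and 13.8%. In the 98 promoters of the 100 densest shared windows, GGGCGG lay in 60.2% and TATAAA in 21.4%, which is above its share in the other promoters. CCAAT was found in 36.6% and 37.6%, TGACGTCA, the cAMP response element, in 2.61% and 2.29%, GGAAGT in 22.9% and 24.4%, and the CArG box, bound by SRF, in 2.19% and 1.34%. These shares were not adjusted for the higher G and C content of shared windows. The 250 bases before the start are shown for Cyr61 and Dpagt1, where NELF was higher, with motif matches in capitals. No motif of this list was found in the stretch before Dpagt1.
Cyr61, chr3:145312950-145313199, minus strand: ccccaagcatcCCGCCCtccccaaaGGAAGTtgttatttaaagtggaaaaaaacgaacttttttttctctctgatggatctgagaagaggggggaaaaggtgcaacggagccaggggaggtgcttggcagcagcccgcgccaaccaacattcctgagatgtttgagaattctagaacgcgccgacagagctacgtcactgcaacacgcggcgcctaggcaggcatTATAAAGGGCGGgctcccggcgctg
Dpagt1, chr9:44134678-44134927, plus strand: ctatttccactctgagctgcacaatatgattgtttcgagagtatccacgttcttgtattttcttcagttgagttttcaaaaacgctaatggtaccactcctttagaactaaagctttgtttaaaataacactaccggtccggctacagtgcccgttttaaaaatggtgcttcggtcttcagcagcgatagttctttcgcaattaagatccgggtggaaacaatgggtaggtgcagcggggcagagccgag
These stretches held 7 NELF, 2 Integrator and 0 SPT5 sites before Dpagt1, and 2, 0 and 3 before Cyr61.

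Some exact positions recurred between libraries. Of a library's sites in shared windows, 3.86% in SPT5 to 7.67% in NELFB were at a position and strand that another library also hit, against 0.627% to 1.36% in other windows. Shared windows were chosen for sites of many libraries and are denser, and the share that this density alone would give was not computed. Orientation was even, with 49.4% to 52.4% of sites on the plus strand in the 11 libraries.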

How the data were processed

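The deposited files list integration sites, 1 per entry, as positions of the first base beyond the viral LTR, per the file headers; values are of another kind than counts, and depth in reads is unknown. Junctions were amplified by nested linker-mediated PCR and sequenced as pairs, per the labels' protocols, and the genome build was mm9, as the submitters' processing notes list it. The sources used here do not give aligner and filters.

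The 873534 entries were reduced to 831994 distinct sites, by chromosome, position and strand within a library, and runs of a protein were merged. Annotation was GENCODE on the same assembly, without pseudogenes. A shared window is named by the protein-coding genes that start in it, else by genes overlapping it, else by its position. Windows named are the 25 densest, up to 10 per direction that passed limma, and the 5 densest without a gene; others named, such as Dot1l and Gnb1, were chosen after their values were seen. Of the windows that passed, 1 is not reported here. NELF and Integrator were put together from the known complexes. The members, gene lists and tests were chosen with earlier results of these data known.

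Rates are sites per 100000 sites of a library. limma 3.58.1 (R 4.3.3, trend and robust settings) used log2(rate + 1), which understates differences of low rates, for windows averaging 5 or more sites over the libraries. It was tested on simulated data with known changes, in which libraries differed otherwise by random spread only. Effects of single libraries or flow cells were not simulated, so the error rate in the real data is not known from it. Intervals are exact binomial at 95%, in Python 3.11.15 with scipy 1.17.1. Alternatives changed the window size and grid, the libraries, the minimum number of sites, positions shared by libraries, the pseudocount and the limma settings.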

Additional observations from a re-analysis of the deposited data

Results flagged for a closer look

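In 98 sets of library values (4 NELF or 6 Integrator libraries), the gap of the highest or lowest library to its nearest neighbour was set against the whole range by Dixon's rule, and 3 sets stood out (3.06%). Chance picks out about 1 set in 20. NELFCD had 4.73% of its sites in shared windows farther than 5 kb from any gene, below the other NELF libraries at 5.90% to 6.07%. In the shared windows of growth factor and TGF-beta genes NELFB had 180.9 sites per 100000, above the other NELF libraries at 127.98 to 129.5. In the window of D17H6S56E-5 and Vars, NELFB had 54.9 sites per 100000, above the other NELF libraries at 31.995 to 33.9.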

How the results depend on the processing

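Changing the rule moved the number of shared windows, 1287 as reported. It was 352 with a site in all 11 libraries, 781 with 5-kb windows, 2144 with 20-kb windows, 205 with at least 2 sites per library and a median of 190.5 (179 to 199) with every library thinned to 18753 sites. Leaving out 1 library, with 9 of the other 10 required, gave 1291 to 2234. Without positions found in more than 1 library, the SPT5 share in shared windows was 15.03%. Within 500 bases of a start, in place of 1 kb, lay 25.2% of NELF, 9.87% of Integrator and 22.2% of SPT5 sites.

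The count of shared windows that passed limma, 9 as reported, was 69 with a pseudocount of 3 (68 with NELF higher and 1 lower), 69 with SPT5 placed in NELF, 2 without the trend and robust settings and 19 without positions found in more than 1 library. Without the runs of the flow cell that INTS9, NABP1 and NABP2 shared, an alternative chosen after seeing the data, it was 34 (33 with NELF higher and 1 lower), and the snRNA shares were 11.99% in INTS9, 4.62% in NABP1 and 11.1% in NABP2. Leaving out 1 library gave 1 to 34. The cause of these changes was not tested. For the 9 windows that passed, 119 of 158 alternative values passed again, 39 did not and 0 changed sign. The Hist3h2ba window passed in all 18 of its alternatives and Irgm1 in 11. No paired analysis was possible because the labels give no replicate numbers that libraries of different proteins share. Small libraries limit the precision: NELFE, INIP and INTS11 had a median of 1 site per shared window.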

Other observations

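The window at chr17:39980001-39990000, far from any annotated gene, had 4, 4, 3 and 10 sites in NELFA, NELFB, NELFCD and NELFE, against 6, 17, 16, 2, 22 and 6 in INTS3, NABP1, NABP2, INIP, INTS9 and INTS11, and 5 in SPT5. How uniquely reads map there was not tested.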
